A study of Mus musculus with 24 samples.

Results

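SIM-A9 microglia exposed to (GT)6 SWCNT were compared directly with SIM-A9 microglia exposed to LPS, to ask which transcripts were higher with the nanotubes than with a bacterial inflammatory stimulus and which were lower. The comparison used 3 libraries labelled (GT)6 SWCNT and 3 labelled LPS, 6 of the 24 libraries of the series, and the genes compared were all that passed a filter on low counts, 13116 of 54838 in the table. The 3 libraries of the Control group, labelled as untreated, are given for reference. SIM-A9 is an immortalised mouse microglial cell line that grows attached to plastic. In all 3 groups the cells were plated in growth medium with serum and moved to 270 uL of serum-free medium for 2 h. A volume of 30 uL of concentrated sample was then added, a step listed for Control too, and polyadenylated RNA was taken after 2 h. The doses of LPS and nanotubes, what the Control wells received in place of a sample, and whether the libraries of a group came from separate cultures are not given in the sources used here. The p-values therefore measure only the spread between libraries of a group, estimated over all 24 libraries, and that spread may be technical.

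LPS is lipopolysaccharide from the outer membrane of Gram-negative bacteria. On microglia it is handed by CD14 to the receptor TLR4, which signals through NF-kB, MAP kinases and interferon regulatory factors. The early products are cytokines, chemokines and the inhibitors that later shut the pathway down. (GT)6 SWCNT are single-walled carbon nanotubes held in suspension by a wrapped strand of DNA of guanine and thymine repeats. They are used as fluorescent probes in brain tissue, where microglia are the resident phagocytes that would meet them. Immediate early genes, such as those of the EGR and FOS families, are switched on without new protein synthesis by many kinds of stimulus. Their products and the dual-specificity phosphatases of the DUSP family in turn shape the MAP kinase signal.

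Total counts per library ran from 17364272 to 24895659 with (GT)6 SWCNT, from 19101562 to 22416164 with LPS and from 18176305 to 23155577 in Control. Mitochondrial transcripts took 1.53% to 1.59%, 1.47% to 1.59% and 1.54% to 1.72% of the counts in the same order. All 14 macrophage and microglia markers were tested, and their summed level was 3529 to 3712 CPM (counts relative to the scaled size of the library) with (GT)6 SWCNT, 3605 to 3964 with LPS and 3564 to 3659 in Control. Of these markers Cd68 was higher with the nanotubes and 6 were lower. Several genes that set brain microglia apart from other macrophages were scarce in this line. Sall1, Siglech and Gpr34 fell below the filter, and Tmem119 averaged 2.99, 3.31 and 4.13 CPM in the 3 groups. Of the neuron markers 2 of 8 passed the filter, of the oligodendrocyte markers 3 of 8, of the astrocyte markers 1 of 8 and of the fibroblast and endothelial markers 1 of 10, and none of these 7 was called in the comparison of (GT)6 SWCNT with LPS by edgeR. Kdr, an endothelial marker, was called higher with the nanotubes with upper-quartile factors, with no filter on low counts or without LPS replicate 1. Against Control, LPS lowered Kdr (log2 −0.47) and the astrocyte marker Aldoc (−0.13), and the nanotubes lowered Kdr (−0.33). The neuronal genes Gad1, Snap25 and Syt1 were at 0 in every library of the 3 groups, as were the oligodendrocyte genes Mog, Mobp, Olig1 and Olig2. The lists as a whole were not at 0. Over the 3 groups the summed astrocyte list read 94.2 to 112 CPM and the fibroblast and endothelial list 90.8 to 138. Aldoc was the only astrocyte marker that passed the filter, and Kdr the only member of the fibroblast and endothelial list. The oligodendrocyte list read 31.9 to 37.2 CPM and the neuron list 0.586 to 1.42.

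Of the 13116 genes, 2829 (21.6%) differed between (GT)6 SWCNT and LPS at an adjusted p under 0.05 (edgeR's quasi-likelihood test, Benjamini-Hochberg adjustment). Of these, 1263 (9.63% of those tested) were higher with the nanotubes and 1566 (11.9%) were higher with LPS. With upper-quartile scaling in place of TMM factors, 57.5% of the called genes were higher with the nanotubes, against 44.6% here. The 2 directions differed in size. Of the 354 genes (2.70%) that differed at least 2-fold, 109 (0.831%) were at least 2-fold higher with the nanotubes, and 245 (1.87%) at least 2-fold higher with LPS, and 89 and 198 of them were protein-coding. When genes averaging under 50 counts were left out, these counts were 55 and 141. In bulk RNA, fewer cells that express a gene and less of its RNA per cell cannot be told apart.

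**Figure D1:**
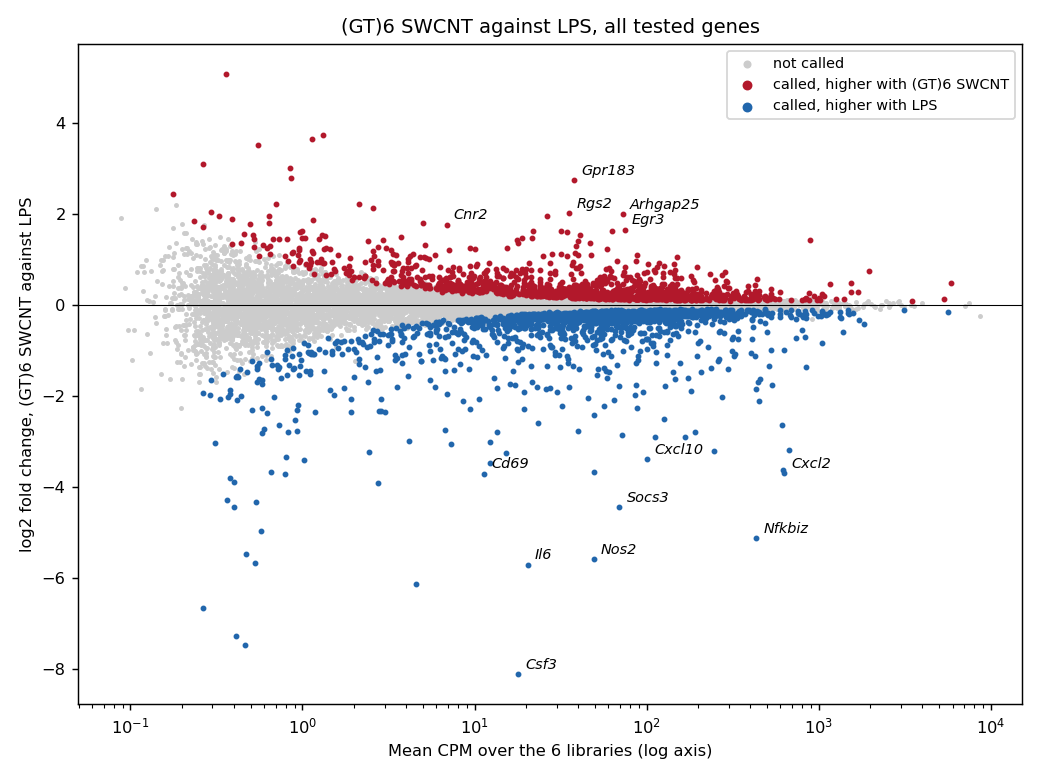
Log2 fold change of (GT)6 SWCNT against LPS (vertical axis) against the mean CPM over the 6 libraries (horizontal, log axis) for the 13116 tested genes; red and blue points were called at an adjusted p under 0.05, grey points were not. The points reach further down, to Csf3 and Il6, than up, where Gpr183 is the labelled gene farthest from 0.

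The Control libraries entered the filter, the scaling and the estimate of spread, but not the difference between (GT)6 SWCNT and LPS that was tested. Their levels are given for reference. Among the 245 genes at least 2-fold higher with LPS, Control lay nearer to the nanotube level in 229 (93.5%). The median log2 difference was 1.87 for LPS against Control and 0.24 for (GT)6 SWCNT against Control. Over all 1566 genes called higher with LPS that share was 75.2%, with medians of 0.28 and −0.03. Among the 109 genes at least 2-fold higher with the nanotubes, Control lay nearer to the nanotube level in 66 and nearer to the LPS level in 43. The medians were −0.94 for LPS against Control and 0.41 for the nanotubes against Control. Over all 1263 genes called higher with the nanotubes Control lay nearer to the nanotube level in 59.9%, with medians of −0.19 and 0.08. Over all tested genes the medians of the 3 comparisons were −0.0046 for (GT)6 SWCNT against LPS, −0.0084 for LPS against Control and −0.017 for (GT)6 SWCNT against Control. In LPS against Control 552 genes (4.21%) differed at least 2-fold, and in (GT)6 SWCNT against Control 199 (1.52%) did. LPS was higher than Control in 1809 genes (13.8%) and lower in 1908 (14.5%), and the nanotubes were higher than Control in 1298 (9.90%) and lower in 1382 (10.5%). The comparisons with Control share the LPS or nanotube libraries with the direct one, so they are given side by side as levels and not as separate evidence.

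The promoters of 4 genes are printed because they belong to the 2 genes with a usable RefSeq entry that stood farthest from 0 in each direction, among protein-coding genes averaging at least 5 CPM. They were read from the RefSeq promoter table on GRCm38.p6, 5′ to 3′ on the gene's strand, ending at the base before the GENCODE M21 start of the gene. For Il6 this was also the RefSeq start. For the others the RefSeq start lay further downstream, and the 250 bases before it were cut to 222 for Cxcl2, 248 for Gpr183 and 238 for Rgs2. Il6 and Cxcl2 were higher with LPS, Gpr183 and Rgs2 with the nanotubes. Capitals mark matches on either strand to 5 motifs: the NF-kB consensus, the CArG box bound by SRF, the AP-1 motif TGANTCA, the CRE motif TGACGTCA and the EGR motif GCGNGGGCG. The stretches are chr5:30012864-30013113 (plus strand) for Il6, chr5:90903649-90903870 (plus) for Cxcl2, chr14:121965196-121965443 (minus) for Gpr183 and chr1:144004162-144004399 (minus) for Rgs2.
Il6 promoter: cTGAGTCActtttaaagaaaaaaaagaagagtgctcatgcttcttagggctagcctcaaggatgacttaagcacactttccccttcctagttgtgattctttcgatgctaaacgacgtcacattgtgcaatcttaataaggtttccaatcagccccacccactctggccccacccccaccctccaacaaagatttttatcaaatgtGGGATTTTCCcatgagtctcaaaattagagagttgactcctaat
Cxcl2 promoter: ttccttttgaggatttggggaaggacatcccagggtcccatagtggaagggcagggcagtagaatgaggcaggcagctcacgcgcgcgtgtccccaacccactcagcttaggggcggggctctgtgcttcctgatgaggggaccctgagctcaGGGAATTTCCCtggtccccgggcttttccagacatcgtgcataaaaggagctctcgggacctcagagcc
Gpr183 promoter: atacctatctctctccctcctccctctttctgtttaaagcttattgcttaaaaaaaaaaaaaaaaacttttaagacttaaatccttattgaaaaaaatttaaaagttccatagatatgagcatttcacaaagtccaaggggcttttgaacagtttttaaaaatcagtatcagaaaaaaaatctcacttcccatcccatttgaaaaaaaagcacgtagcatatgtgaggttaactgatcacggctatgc
Rgs2 promoter: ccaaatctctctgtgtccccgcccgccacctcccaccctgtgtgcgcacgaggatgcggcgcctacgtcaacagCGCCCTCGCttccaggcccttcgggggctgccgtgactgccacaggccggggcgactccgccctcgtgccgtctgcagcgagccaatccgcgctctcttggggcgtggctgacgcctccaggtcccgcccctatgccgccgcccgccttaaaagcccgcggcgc
The Il6 promoter held an AP-1 match at −249 to −243 and an NF-kB match at −44 to −35, counted from −1 at the last base printed. In the Cxcl2 promoter 2 overlapping NF-kB matches, 1 on each strand, covered −69 to −59. The Rgs2 promoter held an EGR match on the opposite strand at −164 to −156, and none of the 5 motifs matched in the Gpr183 stretch.

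Of the 13116 tested genes, 9389 had a RefSeq entry, and the 250 bases before each RefSeq start were searched. The NF-kB consensus matched in 8.74% of them, in 18.3% of the 164 promoters of genes at least 2-fold higher with LPS and in 13.2% of the 76 of genes at least 2-fold higher with the nanotubes. For AP-1 these shares were 4.19%, 10.4% and 9.21%, and for EGR they were 8.80%, 8.54% and 11.8%. The CRE matched in 2.84%, 1.22% and 2.63%, and the CArG box in 0.99%, 0.61% and 2.63%. The shares of the smaller sets rest on few promoters (30 with an NF-kB match on the LPS side and 10 on the nanotube side), and no test was made of them. A match is a description of letters and not a bound site.

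The secreted cytokines and growth factors held the largest differences toward LPS. Of 28 listed, 24 were tested, 18 were lower with the nanotubes than with LPS, 3 were higher (Hbegf, Il1rn and Pdgfb) and 3 did not pass the test (Il18, Osm and Tgfb1). The median log2 fold change of the list was −2.23. For 4 of the 24, among them Csf3, Csf2 and Il12b, either the nanotube or the LPS libraries all held no more than 3 counts. A gene that is so scarce with the nanotubes can pass the filter through LPS alone. It can then differ only toward LPS. With only genes averaging at least 50 counts tested, 11 were lower. In LPS against Control 22 of the 24 were higher, and in (GT)6 SWCNT against Control 13 were higher and Il15 was lower. Here and below, members named to complete such a count were chosen after their values were seen. The counts of each list stand beside those over all tested genes, of which 9.63% were higher with the nanotubes and 11.9% lower.

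Csf3 encodes G-CSF, the growth factor of neutrophil production (ENSMUSG00000038067.2, chr11:98701263-98703629). Its libraries read 32.6, 37.7 and 36.7 CPM with LPS, while no nanotube library held more than 3 counts and no Control library more than 1. Against a floor of 3 counts per library, Csf3 was at least 250.3-fold higher with LPS than with the nanotubes. Csf2, the related factor GM-CSF, was also at that floor with the nanotubes and at 9.03 ± 0.919 CPM (SD, n = 3) with LPS, at least 63.3-fold higher. Its exons overlap those of Gm12223, and since strand use in the counting is not given, the reads of such pairs cannot be told apart. Il12b, a subunit of interleukin-12 and interleukin-23, was at 0.435, 1.42 and 1.496 CPM with LPS and at the floor with the nanotubes, a difference of at least 7.82-fold.

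Il6, a cytokine that drives the acute-phase response (ENSMUSG00000025746.11, chr5:30013114-30019981), was above the floor with the nanotubes. It read 0.862, 0.731 and 0.644 CPM with (GT)6 SWCNT, 39.5, 37.5 and 43.1 with LPS and 0.220, 0.170 and 0.214 in Control. The 3 groups did not overlap, and the nanotube libraries lay nearer to Control than to LPS. The log2 difference from LPS was −5.71 ± 0.15 (SE, adjusted p = 1.43e-27), and that of the nanotubes from Control was 1.90 ± 0.39 (adjusted p = 0.000347). Tnf, the cytokine TNF, read 92.3, 92.7 and 91.8 CPM with the nanotubes and 1082, 1174 and 1176 with LPS. Its Control libraries, 37.0, 35.1 and 34.6 CPM, were below both.

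The exceptions among the cytokines were transcripts that both stimuli raised over Control and the nanotubes raised more. Il1rn encodes the antagonist that blocks the interleukin-1 receptor (ENSMUSG00000026981.15, chr2:24336853-24351494). It read 2611, 2476 and 2263 CPM with the nanotubes, 1421, 1432 and 1545 with LPS and 672, 539 and 529 in Control. Every nanotube library was above every LPS library, and every LPS library was above Control. The difference was 0.74 ± 0.08 on the log2 scale (adjusted p = 4.37e-10). Over all tested genes, 2017 (15.4%) had every nanotube library above every LPS library, and 2321 (17.7%) had the reverse.

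Hbegf, a ligand of the EGF receptor, read 53.1, 55.3 and 49.6 CPM with the nanotubes, 28.4, 29.5 and 29.2 with LPS and 24.3, 22.04 and 20.9 in Control. Its log2 difference between the nanotubes and LPS was 0.86 ± 0.06 (adjusted p = 5.91e-14). Pdgfb, a growth factor for pericytes and other mesenchymal cells, read 451, 444 and 412 CPM with the nanotubes, 368, 381 and 367 with LPS and 98.9, 106 and 99.6 in Control. The groups did not overlap, and the difference between the stimuli was small beside the rise over Control (0.23 ± 0.04 against 2.10 ± 0.04 for the nanotubes). Csf1, the growth factor that microglia need to survive, was raised by both and more by LPS, at 745 ± 37.1 CPM with the nanotubes, 1343 ± 45.2 with LPS and 331 ± 19.5 in Control (SD, n = 3).

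Of 22 chemokine ligands 15 were tested, and 11 were lower with the nanotubes, 2 were higher (Ccl7 and Cxcl14) and 2 did not pass (Ccl6 and Ccl12), with a list median of −0.84. Of the 15, 1 was at the floor of 3 counts with the nanotubes or with LPS. Without (GT)6 SWCNT replicate 1 or 2, or without LPS replicate 1, only 1 was called higher. Cxcl2, which attracts neutrophils (ENSMUSG00000058427.10, chr5:90903871-90905938), read 85.6, 89.9 and 96.6 CPM with the nanotubes and 1079, 1222 and 1223 with LPS. Its Control libraries stood at 15.2, 11.3 and 12.5 CPM, so the nanotubes raised it too, by a log2 value of 2.81 ± 0.08 (adjusted p = 1.26e-24). Cxcl10, an interferon-responsive chemokine for T cells whose exons overlap those of Art3, averaged 17.4 ± 1.35 CPM with the nanotubes, 184 ± 13.1 with LPS and 5.60 ± 0.604 in Control (SD, n = 3).

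Ccl2 and Ccl3, the ligands with the highest CPM of this list, both attract monocytes. Ccl2 read 558, 558 and 557 CPM with the nanotubes and 877, 947 and 942 with LPS, a log2 difference of −0.73 ± 0.06 (adjusted p = 1.09e-11). Ccl3 averaged 1113 ± 108 CPM with the nanotubes, 1677 ± 178 with LPS and 333 ± 23.7 in Control. Ccl7, a further monocyte chemokine, was slightly higher with the nanotubes, at 27.6, 28.9 and 25.2 CPM against 20.2, 23.0 and 24.5 with LPS (log2 0.27 ± 0.09, adjusted p = 0.0251), and its call was lost without any of the 3 libraries named above. Cxcl14, a chemokine found in resting tissue, read 189, 187 and 168 CPM with the nanotubes, 112, 127 and 124 with LPS and 139, 143 and 138 in Control. LPS had lowered it and the nanotubes had raised it, and the 3 groups did not overlap.

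**Figure D2:**
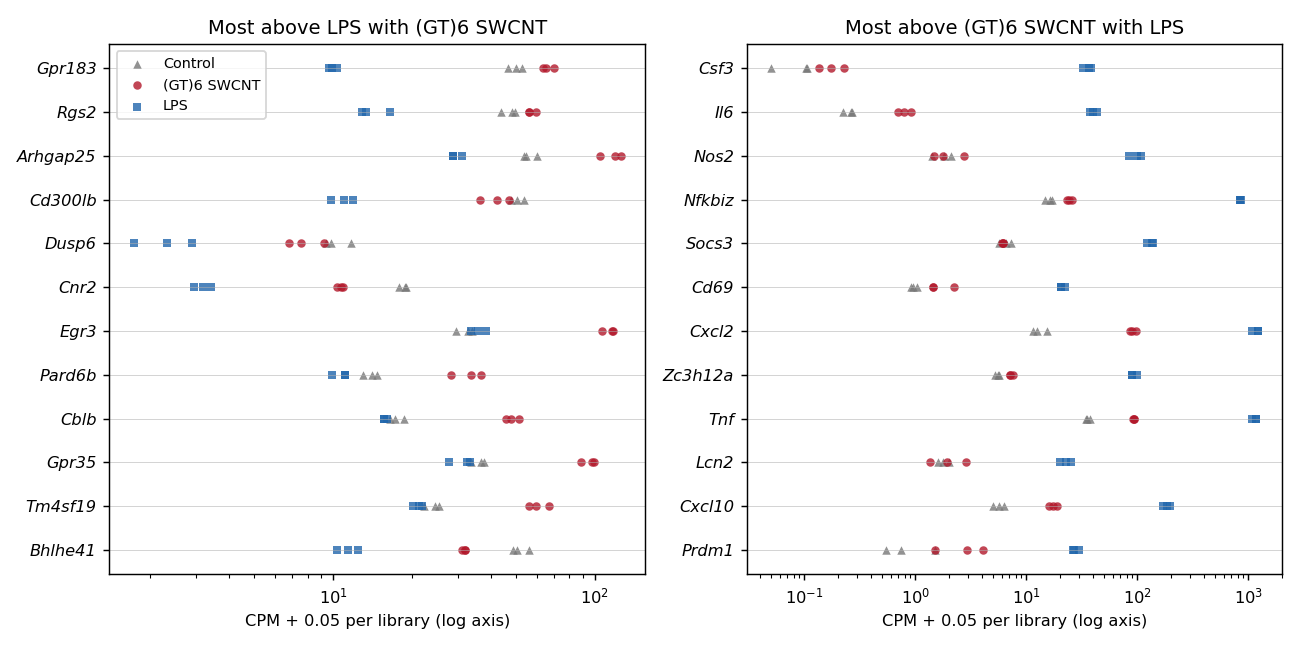
CPM + 0.05 in each library (horizontal, log axis) of the 12 protein-coding genes most above LPS with (GT)6 SWCNT (left) and the 12 most above (GT)6 SWCNT with LPS (right), with red circles for (GT)6 SWCNT, blue squares for LPS and grey triangles for Control. On the right the nanotube and Control libraries all lie below the LPS libraries for the 12 genes shown, while on the left Control lies nearer to LPS for Egr3, Cblb and Gpr35 and nearer to the nanotubes for Gpr183 and Rgs2. The axes of the panels differ.

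The NF-kB list, which holds the subunits of this transcription factor and the inhibitors it induces, was called in 1 direction. All 28 members were tested, 27 were lower with the nanotubes than with LPS and Tnip2 did not pass the test (log2 0.17 ± 0.07, adjusted p = 0.065), with a list median of −1.09. With upper-quartile factors, with the length and GC trend removed or without (GT)6 SWCNT replicate 3 or LPS replicate 3, Tnip2 was called higher. Against Control, LPS raised 26 members with a median of 1.39, and the nanotubes raised 21 with a median of 0.32 and lowered Cyld. Nfkbiz, an atypical IkB protein that NF-kB needs to induce Il6 and other secondary genes (ENSMUSG00000035356.17, chr16:55811375-55838899), read 22.9, 25.9 and 23.9 CPM with the nanotubes, 842, 838 and 853 with LPS and 14.5, 16.98 and 16.2 in Control. The log2 difference from LPS, −5.12 ± 0.05 (adjusted p = 2.55e-41), was far larger than the rise of the nanotubes over Control of 0.60 ± 0.06.

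Zc3h12a, an RNase that degrades the Il6 transcript, read 7.06, 7.52 and 7.09 CPM with the nanotubes against 88.5, 89.2 and 98.6 with LPS. Tnfaip3, the ubiquitin-editing inhibitor A20, read 37.3, 37.8 and 37.7 CPM with the nanotubes, 219.6, 209 and 217 with LPS and 23.7, 23.6 and 23.3 in Control. Nfkbia, the inhibitor IkB-alpha, stood at 169 ± 7.36 CPM with the nanotubes, 731 ± 42.5 with LPS and 113 ± 2.71 in Control (SD, n = 3). For each of these the nanotube level lay between Control and LPS, and much nearer to Control.

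The sensors of bacterial products were split. Of 22 Toll-like receptors and adaptors, 9 were lower with the nanotubes than with LPS and 2 higher, with a median of −0.09. With upper-quartile factors or without (GT)6 SWCNT replicate 3 only 5 were lower, and without LPS replicate 1 4 were higher. Tlr2, the receptor of bacterial lipoproteins, read 286, 286 and 305 CPM with the nanotubes, 773, 720.0 and 726 with LPS and 276, 280.4 and 275 in Control. Its nanotube level did not pass the test against Control (log2 0.08 ± 0.04, adjusted p = 0.221). Cd14, the co-receptor of LPS, averaged 424 ± 10.9 CPM with the nanotubes, 842 ± 21.03 with LPS and 295 ± 11.3 in Control.

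Tlr4, the LPS receptor itself, went the other way. It read 30.4, 30.1 and 30.8 CPM with the nanotubes, 25.97, 21.1 and 21.4 with LPS and 42.6, 40.6 and 41.9 in Control. Both stimuli lowered it, LPS more (log2 −0.87 ± 0.07) than the nanotubes (−0.45 ± 0.07), and the direct difference was 0.42 ± 0.07 (adjusted p = 1.36e-05). Tlr13, which detects bacterial ribosomal RNA, had the same order, at 115 ± 10.0, 82.0 ± 7.99 and 135 ± 2.00 CPM (SD, n = 3).

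Of 20 costimulatory and adhesion molecules 18 were tested, and 11 were lower with the nanotubes, Cd86 was higher and 6 did not pass, with a median of −0.79, and with upper-quartile factors 2 were higher. Cd69, an early activation marker of leukocytes, read 1.40, 1.38 and 2.17 CPM with the nanotubes and 20.4, 22.2 and 20.4 with LPS. Icosl, the ligand of the T-cell receptor ICOS, averaged 15.5 ± 0.847 CPM with the nanotubes, 83.1 ± 4.08 with LPS and 12.97 ± 0.524 in Control. Cd40, the receptor through which helper T cells activate myeloid cells, averaged 20.0 ± 0.501, 93.7 ± 3.59 and 13.5 ± 0.195 CPM. Cd86, the ligand of CD28, showed the opposite pattern, at 106, 101 and 104 CPM with the nanotubes, 75.4, 69.5 and 74.5 with LPS and 75.5, 72.5 and 75.3 in Control. Its difference was 0.51 ± 0.05 on the log2 scale (adjusted p = 3.08e-11), and LPS and Control overlapped.

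In the list of itaconate, arginine and nitric oxide metabolism, 13 of 16 genes were tested, 5 were lower with the nanotubes and none was higher, with a median of −0.19, and Nos2 and Acod1 had the largest differences of this list. Nos2, the inducible nitric oxide synthase (ENSMUSG00000020826.8, chr11:78920787-78960254), read 2.71, 1.72 and 1.41 CPM with the nanotubes, 83.8, 98.2 and 108 with LPS and 2.03, 1.36 and 1.76 in Control. The nanotube and Control libraries overlapped, and their difference of 0.24 ± 0.28 did not pass the test (adjusted p = 0.621). Acod1, which makes itaconate, read 179, 169.6 and 158 CPM with the nanotubes, 999.7, 1058 and 1108 with LPS and 97.5, 82.4 and 81.4 in Control. Odc1, the first enzyme of polyamine synthesis, was raised alike over Control, at 1407 ± 62.5 CPM with the nanotubes and 1423 ± 23.8 with LPS against 899 ± 54.7 (SD, n = 3), and the direct difference of −0.02 ± 0.05 did not pass (adjusted p = 0.864).

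Of 11 tested prostaglandin genes, 4 were lower with the nanotubes and 2 were higher, with a median of −0.24. Ptgs2, the inducible cyclooxygenase, read 133, 135 and 132 CPM with the nanotubes, 1189.8, 1192 and 1246 with LPS and 42.97, 40.2 and 38.4 in Control. The 2 that were higher, Ptgir, a prostacyclin receptor, and Hpgds, a prostaglandin D synthase, had been lowered by LPS (log2 −0.38 ± 0.04 and −0.22 ± 0.05 against Control). Their nanotube levels did not pass the test against Control (adjusted p = 0.64 and 0.724).

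Interferon genes were called mostly toward LPS. Of 28 listed, 27 were tested, 15 were lower with the nanotubes, Irf8 was higher and 11 did not pass, with a median of −0.34, and with the length and GC trend removed 2 were higher. Of the 27, 2 were at the floor of 3 counts with the nanotubes or with LPS, Ifnb1 among them. Ifnb1, the beta interferon itself, was scarce, at 0.543, 0.439 and 0.655 CPM with LPS and no more than 3 counts in any nanotube library, at least 3.83-fold higher with LPS. Irf1, a transcription factor that NF-kB and interferon signals induce, averaged 34.7 ± 2.38 CPM with the nanotubes, 137 ± 8.94 with LPS and 30.7 ± 1.91 in Control, and its exons overlap those of Gm17334. Gbp2, a GTPase induced by interferon, averaged 0.911 ± 0.212, 4.63 ± 0.866 and 0.925 ± 0.246 CPM (SD, n = 3), and its nanotube libraries overlapped Control.

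Most regulators of cytokine signalling were not called, though a larger share was lower with the nanotubes than the 11.9% over all tested genes. Of 21 tested SOCS and JAK-STAT genes 7 were lower with the nanotubes and none was higher, with a median of −0.05. With upper-quartile factors, with no filter on low counts, or without (GT)6 SWCNT replicate 3 or LPS replicate 1, 1 member was called higher. Socs3, an inhibitor that interleukin-6 signalling induces (ENSMUSG00000053113.3, chr11:117966079-117970047), read 6.16, 5.93 and 6.09 CPM with the nanotubes, 123, 135 and 139.5 with LPS and 6.54, 5.62 and 7.21 in Control. The nanotube libraries fell within the range of Control (log2 −0.08 ± 0.12, adjusted p = 0.712). Jak2, a kinase of cytokine receptors, likewise averaged 21.4 ± 1.60, 48.9 ± 2.39 and 22.3 ± 0.765 CPM (SD, n = 3).

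Of 21 tested TGF-beta, SMAD and ID genes 7 were lower with the nanotubes and Ski was higher, with a median of −0.10, and Ski was not called without (GT)6 SWCNT replicate 1 or 2 or LPS replicate 1 or 3. With upper-quartile factors, or with genes averaging at least 50 counts, 2 members were called higher. Id3, an inhibitor of helix-loop-helix transcription factors, averaged 17.3 ± 0.478 CPM with the nanotubes, 126 ± 10.0 with LPS and 5.93 ± 0.736 in Control.

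Plau, a secreted protease gene, stood on the nanotube side. It encodes urokinase, which activates plasminogen (ENSMUSG00000021822.3, chr14:20836660-20843385). It read 1337, 1315 and 1271 CPM with the nanotubes, 494, 486 and 473 with LPS and 513, 479.5 and 449 in Control. The nanotube libraries stood apart, and LPS overlapped Control (log2 0.01 ± 0.05, adjusted p = 0.904). The difference between the stimuli was 1.43 ± 0.05 (adjusted p = 1.11e-24).

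**Figure D3:**
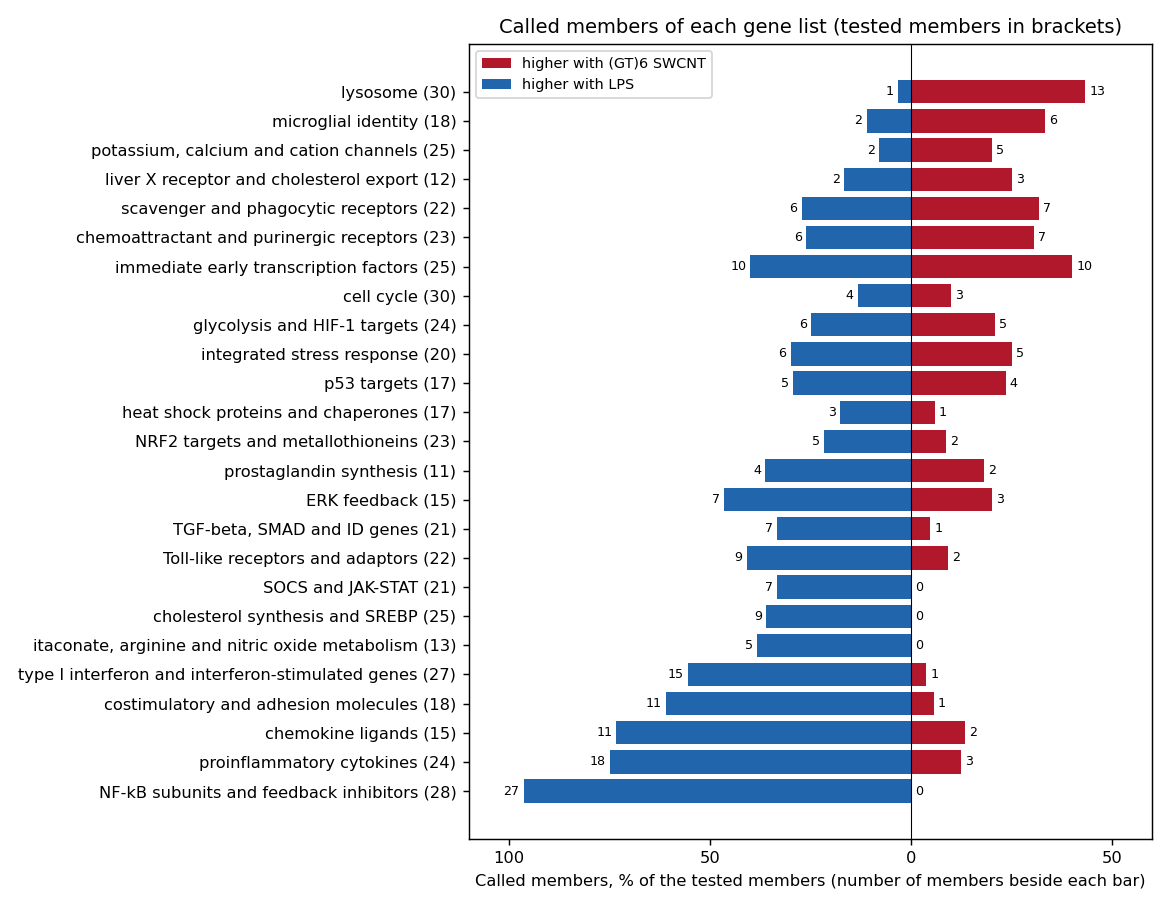
Members of each gene list called higher with (GT)6 SWCNT (red, to the right) or higher with LPS (blue, to the left), as % of the tested members of the list (bracketed) with the number beside each bar. The NF-kB list (27 of 28 toward LPS), the cytokines (18 of 24) and the chemokines (11 of 15) extend farthest to the left and the lysosome list (13 of 30) farthest to the right.

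The gene most above LPS with the nanotubes among protein-coding genes averaging at least 5 CPM was Gpr183. It encodes EBI2, the oxysterol receptor that guides leukocyte migration (ENSMUSG00000051212.8, chr14:121952551-121965195). It read 63.2, 69.9 and 65.3 CPM with the nanotubes, 10.3, 9.86 and 9.63 with LPS and 52.8, 46.6 and 50.1 in Control. LPS had lowered it by 2.32 ± 0.07 on the log2 scale, the nanotubes had raised it slightly (0.41 ± 0.05), and the direct difference was 2.74 ± 0.06 (adjusted p = 4.75e-29). Rgs2, which dampens signalling of G-protein-coupled receptors (ENSMUSG00000026360.9, chr1:143999338-144004161), had the same order, at 55.8, 56.1 and 59.3 CPM with the nanotubes, 16.5, 12.8 and 13.3 with LPS and 48.3, 49.4 and 43.8 in Control.

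Of 30 chemoattractant and purinergic receptors 23 were tested, and 7 were higher with the nanotubes, 6 lower and 10 not called, with a median of 0.13. Beside Gpr183 the highest were Cxcr4, the receptor of CXCL12, and Ccr1, a receptor of CCL3 and CCL5. Cxcr4 read 3.94, 4.34 and 3.34 CPM with the nanotubes, 1.74, 1.37 and 1.78 with LPS and 5.66, 4.47 and 5.39 in Control. The lowest were Adora2a, an adenosine receptor, and Ccrl2, an atypical receptor of the chemoattractant chemerin. Adora2a averaged 0.923 ± 0.204 CPM with the nanotubes, 7.35 ± 0.585 with LPS and 0.542 ± 0.156 in Control, and Ccrl2 averaged 11.4 ± 0.555, 52.9 ± 4.93 and 4.36 ± 0.584. C5ar1, the receptor of complement C5a, was raised by both to 133 ± 5.64 and 131 ± 2.37 CPM over 60.5 ± 0.275 in Control (SD, n = 3), and the direct difference of 0.02 ± 0.04 did not pass.

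The other receptors and signalling proteins among the 12 genes most above LPS differed in where Control lay. Cd300lb, an activating receptor of myeloid cells, was lowered by LPS and slightly by the nanotubes (log2 −2.22 and −0.26 against Control), at 46.9, 42.3 and 36.3 CPM with the nanotubes, 11.8, 9.77 and 10.9 with LPS and 53.6, 47.7 and 50.4 in Control. Cnr2, the cannabinoid receptor of immune cells, averaged 10.6 ± 0.284, 3.14 ± 0.236 and 18.5 ± 0.659 CPM, so both stimuli had lowered it, and Bhlhe41, a transcriptional repressor whose exons overlap those of Gm43909, had the same order (31.6 ± 0.496, 11.3 ± 1.06 and 51.7 ± 3.74 CPM, SD, n = 3). Arhgap25, a GTPase-activating protein for Rac, was moved in opposite directions. It read 125, 119 and 105 CPM with the nanotubes, 28.6, 28.6 and 31.04 with LPS and 60.2, 54.6 and 53.4 in Control, and no 2 of the groups overlapped. Pard6b, a cell polarity protein, averaged 32.8 ± 4.29, 10.7 ± 0.675 and 13.9 ± 0.812 CPM and was likewise raised by the nanotubes and lowered by LPS (log2 1.25 ± 0.09 and −0.37 ± 0.10 against Control).

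For some genes higher with the nanotubes, LPS lay within a log2 value of 0.25 of Control and the nanotubes lay above both. The 6 with the largest difference were Egr3, Cblb, Gpr35, Tm4sf19, Plau and Gfod1. Cblb encodes an E3 ubiquitin ligase that restrains receptor signalling, and it read 51.2, 47.8 and 45.9 CPM with the nanotubes, 15.98, 15.6 and 15.7 with LPS and 17.3, 18.6 and 16.4 in Control. Gpr35, a G-protein-coupled receptor with several proposed ligands, read 99.4, 97.1 and 88.4 CPM with the nanotubes, 33.4, 27.6 and 32.4 with LPS and 37.7, 36.6 and 33.6 in Control. LPS lowered it slightly (log2 −0.21 ± 0.07, adjusted p = 0.0186). Tm4sf19, a tetraspan membrane protein, averaged 60.8 ± 5.32, 21.1 ± 0.835 and 24.02 ± 1.62 CPM, and Gfod1 averaged 66.9 ± 7.52, 26.4 ± 2.61 and 25.9 ± 1.85 CPM (SD, n = 3).

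For others LPS lay below Control. With the nanotubes within a log2 value of 0.25 of Control, the 6 with the largest difference were Dusp7, Midn, Sema4c, Rab7b, Sh2d3c and Hhex. Dusp7, a phosphatase of ERK, read 61.5, 59.5 and 53.1 CPM with the nanotubes, 21.2, 23.0 and 22.2 with LPS and 61.0, 60.8 and 60.7 in Control. Rab7b, a small GTPase of endosome and lysosome traffic that promotes degradation of TLR4, read 81.2, 85.5 and 82.3 CPM with the nanotubes, 37.6, 35.8 and 33.2 with LPS and 84.9, 79.1 and 81.5 in Control. Midn averaged 25.6 ± 2.87, 10.1 ± 0.0341 and 23.6 ± 0.990 CPM, and Hhex, a homeobox repressor of blood cells, averaged 34.1 ± 2.29, 16.1 ± 2.00 and 34.2 ± 2.01 CPM (SD, n = 3). Sema4c and Sh2d3c share exon sequence with the antisense or neighbouring genes D430040D24Rik and 6330409D20Rik, and their log2 differences were 1.24 ± 0.10 and 1.11 ± 0.07.

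**Figure D4:**
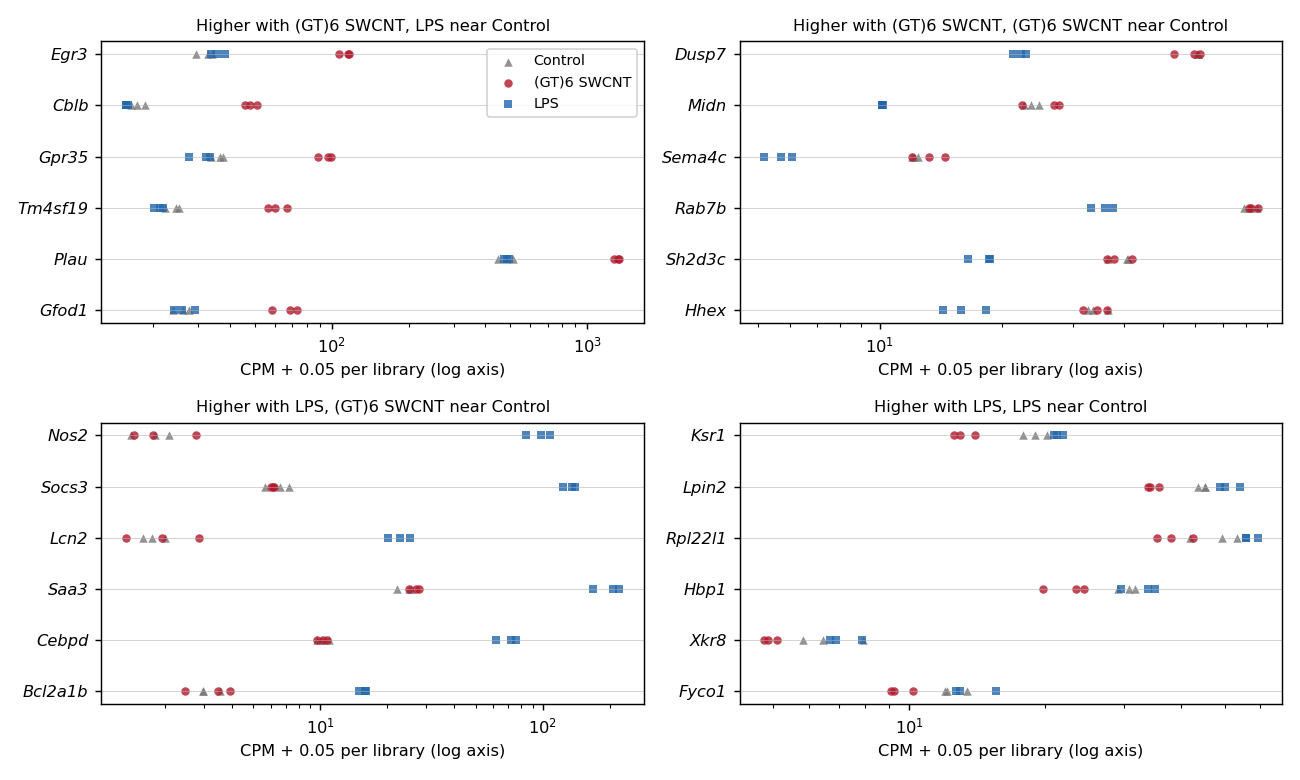
CPM + 0.05 in each library (horizontal, log axis) of the 6 genes with the largest difference in each of 4 settings: higher with (GT)6 SWCNT or with LPS, and with either LPS or (GT)6 SWCNT near Control, with red circles for (GT)6 SWCNT, blue squares for LPS and grey triangles for Control. The axes of the panels differ: Nos2 reads 1.41 to 2.71 CPM with the nanotubes and 83.8 to 108 with LPS, while Lpin2 reads 33.8 to 35.7 and 48.9 to 54.1.

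Toward LPS the 2 settings were unequal in size. With the nanotubes near Control the largest differences were in Nos2, Socs3, Lcn2, Saa3, Cebpd and Bcl2a1b. Lcn2, which sequesters bacterial siderophores, averaged 1.99 ± 0.758 CPM with the nanotubes, 22.7 ± 2.55 with LPS and 1.74 ± 0.206 in Control. Saa3, an acute-phase protein, averaged 26.5 ± 1.42, 198 ± 27.5 and 24.2 ± 1.95 CPM (SD, n = 3). Cebpd, an acute-phase transcription factor, shares exon sequence with Spidr, and Bcl2a1b overlaps Gm29094 and belongs to a family of near-identical copies, so reads of these could not be assigned with certainty. Their log2 differences were −2.77 ± 0.10 and −2.29 ± 0.16.

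With LPS near Control, that is where the nanotubes lowered a gene and LPS did not move it beyond 0.25, the largest log2 differences were −0.71 ± 0.07 in Ksr1, −0.56 ± 0.07 in Lpin2 and −0.56 ± 0.09 in Rpl22l1. Ksr1, a scaffold of the ERK cascade, read 12.9, 12.5 and 13.9 CPM with the nanotubes, 21.2, 21.9 and 20.9 with LPS and 17.9, 18.9 and 20.2 in Control. Its exons overlap Gm11201. Lpin2, a phosphatidate phosphatase, averaged 34.6 ± 1.03, 51.0 ± 2.74 and 44.7 ± 0.899 CPM (SD, n = 3). LPS raised Lpin2 slightly over Control (log2 0.189, adjusted p = 0.0239), and Rpl22l1 too (0.248, adjusted p = 0.0379). The nanotubes differed from Control by −0.375 in Lpin2 and −0.315 in Rpl22l1. Hbp1, Xkr8 and Fyco1 followed, at −0.55 ± 0.08, −0.55 ± 0.15 and −0.52 ± 0.10. The exons of Rpl22l1 overlap those of Gm33051, those of Hbp1 overlap Cog5 and those of Fyco1 overlap AC165425.1.

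Immediate early transcription factors were divided evenly. Of 28 listed 25 were tested, 10 were higher with the nanotubes, 10 were lower and 5 did not pass (Fosb, Ier5, Klf2, Klf4 and Nr4a2), with a median of 0.13. Against Control, LPS raised 18 (median 0.90) and the nanotubes raised 21 (median 0.80). Egr3 led the nanotube side (ENSMUSG00000033730.4, chr14:70077203-70082614). It read 107, 117 and 116 CPM with the nanotubes, 35.6, 33.7 and 38.4 with LPS and 29.3, 34.04 and 32.7 in Control. LPS overlapped Control and did not pass the test (log2 0.16 ± 0.08, adjusted p = 0.128), while the nanotubes differed from LPS by 1.65 ± 0.07 (adjusted p = 7.32e-21).

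Egr2 and Srf were raised by both and more by the nanotubes. Egr2, of the same zinc-finger family as Egr3, read 43.3, 44.4 and 45.8 CPM with the nanotubes, 26.2, 27.6 and 29.5 with LPS and 13.8, 15.9 and 14.9 in Control. Srf, the serum response factor that binds the CArG box, read 182, 178 and 163 CPM with the nanotubes, 120.2, 132 and 128 with LPS and 106, 108 and 106 in Control. Arc, an immediate early gene of neurons and immune cells, averaged 20.5 ± 0.927, 12.8 ± 1.62 and 11.1 ± 0.849 CPM (SD, n = 3), and LPS did not pass the test against Control (adjusted p = 0.118). Klf10, a repressor that TGF-beta induces, was lowered by LPS (log2 −1.21) and raised slightly by the nanotubes (0.26), at 29.2, 28.2 and 25.4 CPM with the nanotubes, 11.3, 9.67 and 9.26 with LPS and 20.0, 24.2 and 25.2 in Control. Fos, lowered by LPS, had a smaller difference between the stimuli (log2 0.44 ± 0.10, adjusted p = 0.00164), with 11.3 ± 0.867, 8.30 ± 0.684 and 12.8 ± 1.68 CPM.

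Of the immediate early genes on the LPS side, Ier3, Myc, Maff and Atf3 were raised by both stimuli. Ier3, which protects cells from TNF-induced death, read 103, 115 and 107 CPM with the nanotubes, 417, 449 and 465 with LPS and 77.9, 69.4 and 68.9 in Control. Myc read 8.05, 8.38 and 7.91 CPM with the nanotubes, 29.9, 31.2 and 31.2 with LPS and 2.42, 2.34 and 2.35 in Control. Maff, a small MAF protein, averaged 75.5 ± 2.17, 208 ± 16.8 and 27.7 ± 0.672 CPM, and Atf3, a repressor of inflammatory genes, averaged 253 ± 5.70, 426 ± 20.7 and 97.9 ± 2.69 CPM (SD, n = 3). Within the FOS family the nanotubes were ahead for Fosl2 (log2 0.33 ± 0.04, adjusted p = 2.63e-08) and Fosl1 (0.28, adjusted p = 0.0226), which overlaps Ccdc85b, and the JUN family was split. Jun, which overlaps Junos, was higher with the nanotubes (0.13 ± 0.05, adjusted p = 0.0495), and Junb, which overlaps Prdx2, and Jund, which overlaps Gm11175, were higher with LPS (−0.76 ± 0.06 and −0.18 ± 0.06). The call of Jun was lost with either other filter on low counts and without any (GT)6 SWCNT replicate or LPS replicate 1 or 3, and that of Jund without (GT)6 SWCNT replicate 3 or LPS replicate 2 or 3. The call of Fosl1 was lost without (GT)6 SWCNT replicate 1 or 2 or LPS replicate 1 or 2.

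The list of ERK feedback regulators also went both ways. It holds phosphatases of p38 and JNK, such as Dusp1, and leaves out Dusp7, the phosphatase of ERK described above. Of 16 listed 15 were tested, 3 were higher with the nanotubes (Dusp1, Dusp6 and Spry2), 7 were lower and 5 did not pass, with a median of −0.09. Dusp6, the phosphatase specific to ERK, read 7.47, 9.16 and 6.74 CPM with the nanotubes, 2.28, 2.83 and 1.68 with LPS and 9.34, 9.75 and 11.6 in Control. LPS lowered it strongly (log2 −2.18 ± 0.14) and the nanotubes weakly (−0.38 ± 0.11). Dusp1, a phosphatase of p38 and JNK whose exons overlap those of Ergic1, was raised by both, to 31.1 ± 1.43 CPM with the nanotubes and 22.9 ± 0.849 with LPS over 9.53 ± 1.48 in Control. Dusp2, which acts on ERK and p38, was higher with LPS, at 74.6 ± 4.05, 153 ± 1.76 and 25.8 ± 1.55 CPM (SD, n = 3).

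**Figure D5:**
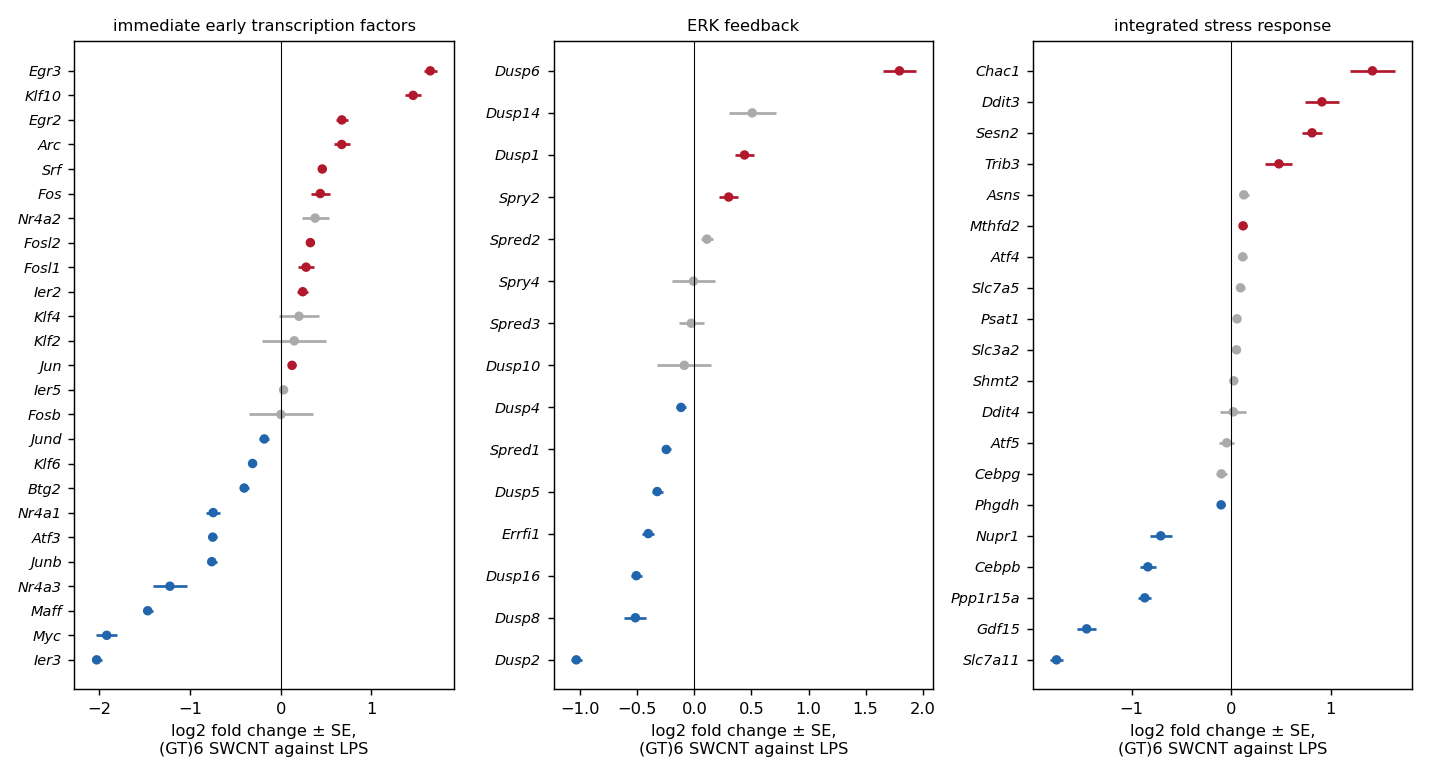
Log2 fold change ± SE of (GT)6 SWCNT against LPS for the tested members of 3 gene lists (25 immediate early transcription factors, 15 members of the ERK feedback list and 20 integrated stress response genes), in red where called higher with (GT)6 SWCNT, in blue where called higher with LPS and in grey where not called. Each list holds members on both sides of 0, from Ier3 at −2.03 to Egr3 at 1.65 in the first.

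The integrated stress response, in which ATF4 induces amino acid and redox genes when translation is slowed, was split as well. Of 24 listed 20 were tested, 5 were higher with the nanotubes, 6 were lower and 9 did not pass, with a median of 0.04. With upper-quartile factors 9 were higher, and without LPS replicate 2 only 3 were. Chac1, which degrades glutathione, read 5.54, 4.17 and 3.05 CPM with the nanotubes, 1.63, 1.95 and 1.26 with LPS and 0.769, 0.979 and 0.748 in Control. Sesn2, a stress-induced inhibitor of mTORC1, read 20.5, 20.6 and 14.9 CPM with the nanotubes, 10.1, 10.7 and 11.4 with LPS and 12.97, 11.5 and 10.4 in Control. Trib3, a pseudokinase, averaged 7.19 ± 0.853, 5.22 ± 0.691 and 4.79 ± 0.360 CPM (SD, n = 3). For Sesn2 and Trib3, LPS did not pass the test against Control (adjusted p = 0.522 and 0.598).

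Ddit3, the factor CHOP (ENSMUSG00000025408.15), also stood on the nanotube side (log2 0.91 ± 0.17, adjusted p = 9.11e-05), but it overlaps Mars, Gm4189 and another entry of the same symbol, which held no counts in the 9 libraries, and its nanotube level did not pass the test against Control (adjusted p = 0.0988). Atf4 itself averaged 379 ± 12.4 CPM with the nanotubes, 349.8 ± 13.5 with LPS and 284 ± 12.4 in Control, and the direct difference did not pass (adjusted p = 0.0533). On the LPS side, Slc7a11, the cystine transporter, read 40.98, 40.6 and 37.0 CPM with the nanotubes, 146, 119 and 136 with LPS and 30.2, 27.4 and 26.4 in Control. Gdf15, a stress cytokine, averaged 30.9 ± 4.74, 85.1 ± 12.8 and 3.99 ± 0.549 CPM (SD, n = 3).

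Of 17 tested p53 targets 4 were higher with the nanotubes (Plk3, Pmaip1, Sesn2 and Zmat3) and 5 were lower, with a median of −0.07. Pmaip1, which encodes the pro-apoptotic protein NOXA, read 117, 128 and 129.6 CPM with the nanotubes, 76.2, 73.4 and 76.3 with LPS and 82.8, 80.4 and 81.4 in Control. The nanotube libraries stood above both other groups. Among 23 NRF2 targets and metallothioneins 2 were higher with the nanotubes and 5 were lower, with a median of −0.02, and without LPS replicate 3 these counts were 5 and 3. With no filter on low counts, or with the length and GC trend removed, 5 were higher. Slc30a1, which exports zinc and overlaps 1700034H15Rik, averaged 23.8 ± 0.693 CPM with the nanotubes, 13.8 ± 0.677 with LPS and 24.2 ± 0.845 in Control. Nfe2l2, the factor NRF2 itself, averaged 242 ± 4.98, 392 ± 12.6 and 193 ± 1.54 CPM (SD, n = 3).

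Differences in lysosome genes were small, and the called ones lay mostly toward the nanotubes. Over all tested genes 9.63% were higher with the nanotubes and 11.9% lower. All 30 genes were tested, 13 were higher with the nanotubes, Ctsc was lower and 16 did not pass, with a median of 0.08 and no difference of 2-fold. Without (GT)6 SWCNT replicate 1 or LPS replicate 1 the number higher was 8. The call of Ctsc was lost with upper-quartile factors, with no filter on low counts, with the length and GC trend removed, and without (GT)6 SWCNT replicate 2 or 3 or LPS replicate 2 or 3. Npc1, which exports cholesterol from lysosomes and overlaps Rmc1, averaged 123 ± 5.21, 102 ± 5.37 and 114 ± 4.61 CPM. Atp6v0d1, a subunit of the proton pump, differed by 0.16 on the log2 scale (adjusted p = 0.000649). Against Control, LPS lowered 5 of the 30 and raised none, and the nanotubes raised 5, among them Ctsb and Grn, and lowered Tfeb.

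Scavenger and phagocytic receptors were divided, with 7 of 22 higher with the nanotubes, 6 lower and a median of 0.08. Cd68, a glycoprotein of macrophage lysosomes, read 975, 989 and 889 CPM with the nanotubes, 724, 819 and 846 with LPS and 814, 818 and 819 in Control. Cd300lf, a lipid receptor, averaged 23.5 ± 1.61, 18.5 ± 0.345 and 22.5 ± 1.06 CPM (SD, n = 3), with LPS below the other groups. Marco and Olr1, scavenger receptors, were higher with LPS and scarce (log2 −1.46 and −1.39). Tlr2, described above with the Toll-like receptors, is also on this list, since some lists share members. It was higher with LPS as well (log2 −1.34) and was not scarce.

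Of 24 microglial identity genes 18 were tested, 6 were higher with the nanotubes, among them Cnr2, Mef2c and Mertk. Csf1r and Spi1 were lower and 10 did not pass, with a median of 0.10. Mef2c averaged 179.6 ± 9.79, 151 ± 4.79 and 183 ± 10.7 CPM, with only LPS below Control by the test. Spi1, which encodes PU.1, averaged 321 ± 23.9, 373 ± 17.7 and 290.0 ± 2.36 CPM (SD, n = 3). Cx3cr1, the fractalkine receptor, and Trem2, a lipid receptor of microglia, did not pass the test between the stimuli (adjusted p = 0.901 and 0.386), and their libraries overlapped.

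Among 25 tested channel and calcium-signalling genes 5 were higher with the nanotubes and Orai2 and Kcnk6 were lower, with a median of 0.01, and 8 were higher with upper-quartile factors. Rcan1, an inhibitor of calcineurin that calcium signalling through NFAT induces, read 142, 153 and 148 CPM with the nanotubes, 82.6, 85.8 and 82.1 with LPS and 60.6, 65.9 and 62.3 in Control. Every nanotube library was above every LPS library, and every LPS library above Control. Kcnn4, a calcium-activated potassium channel of microglia, averaged 75.6 ± 3.24, 49.2 ± 3.01 and 68.4 ± 1.13 CPM. Orai2, a subunit of the store-operated calcium channel, averaged 21.8 ± 0.494, 42.9 ± 2.74 and 31.2 ± 1.27 CPM (SD, n = 3), so the 2 stimuli moved it in opposite directions from Control (log2 −0.51 ± 0.06 with the nanotubes and 0.46 ± 0.05 with LPS).

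Metabolic and growth lists held few or small differences. Of 25 tested cholesterol synthesis genes 9 were lower with the nanotubes and none was higher, with a median of −0.09. Against Control, LPS raised 13 of them and lowered 1 (median 0.093), and the nanotubes raised 8 and lowered 1 (median 0.023). With upper-quartile factors or without LPS replicate 2 the number lower than with LPS was 4. Without (GT)6 SWCNT replicate 1 or 2 or LPS replicate 3, or with no filter on low counts, it was 5. The cholesterol exporters Abca1 and Abcg1, both targets of the liver X receptor, went opposite ways. Abca1 averaged 33.4 ± 3.05 CPM with the nanotubes, 56.8 ± 3.55 with LPS and 33.9 ± 0.598 in Control, and Abcg1 averaged 30.7 ± 1.55, 22.3 ± 2.44 and 40.8 ± 3.004 (SD, n = 3).

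Of 24 tested glycolysis and HIF-1 targets 5 were higher and 6 lower with the nanotubes, and the counts were 9 and 3 with upper-quartile factors and 3 higher without (GT)6 SWCNT replicate 1 or 2. Of 30 cell cycle genes 3 were higher, the cyclins Ccnd1, Ccnd2 and Ccnd3, and 4 were lower. With upper-quartile factors 9 were higher, with the length and GC trend removed 6 were, and without (GT)6 SWCNT replicate 3 5 were. Mki67, a marker of proliferating cells, averaged 846 and 871 CPM with the nanotubes and LPS and did not pass the test. Of 17 heat shock genes Bag3 was higher and Dnajb1, Dnajb4 and Hspa5 were lower. No more than 1 of the heat shock genes was lower with upper-quartile factors, with the length and GC trend removed, or without (GT)6 SWCNT replicate 1 or 2 or LPS replicate 1 or 3. The medians of these 3 lists were 0.0080 for glycolysis, 0.013 for cell cycle and −0.0081 for heat shock. The called shares of the cell cycle and heat shock lists were near the 21.6% over all tested genes.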

How the data were processed

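RNA from SIM-A9 cells was sequenced from polyadenylated libraries, and the authors deposited 1 table of raw read counts per gene for 24 libraries in 8 groups. Reads were aligned with STAR 2.5.4b to GRCm38.p6, per the submitters' processing notes. The counting tool, its strand setting and the annotation release are not given in the sources used here, so genes with overlapping exons are named as such. Gene positions came from GENCODE M21 on GRCm38.

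The counts were fitted with edgeR 4.0.16 in R 4.3.3 (TMM factors, filterByExpr, quasi-likelihood test, two-sided, Benjamini-Hochberg over 13116 genes) to the 24 libraries together, which left 16 degrees of freedom for the spread. A gene was called at an adjusted p under 0.05. The 3 comparisons were (GT)6 SWCNT against LPS and each of them against Control. CPM used the TMM factors, and SE was the log2 fold change over the square root of F. Where no library of a group held over 3 counts, the fold is a bound against 3 counts per library, which covers counting error only.

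The code was tested on simulated data. Alternatives were DESeq2 1.42.0, other scalings and filters, a replicate block and leaving out each library. Genes, lists and the gene rule were chosen with earlier results of these data known. Named genes were the 12 highest and the 12 lowest protein-coding genes averaging at least 5 CPM without overlap between groups, the 6 largest in each setting of Control, each list's called members with the largest differences (up to 4 per direction) and its 2 most abundant members, and members of the microglial identity, immediate early and integrated stress lists. The other 15 libraries entered the filter on low counts, the TMM factors and the estimate of spread. Some list members are not reported here.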

Additional observations from a re-analysis of the deposited data

How the results depend on the processing

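The number of genes called in (GT)6 SWCNT against LPS, 2829, was 2655 to 3098 under other scalings, filters and tests, and 2186 (without (GT)6 SWCNT replicate 2) to 2706 (without (GT)6 SWCNT replicate 3) when 1 library was left out. The share higher with the nanotubes, 44.6%, was 57.5% with upper-quartile factors and 53.7% with the length and GC trend removed; fitting only these 2 groups gave 2541 genes. The number with at least a 2-fold difference, 354, was 196 when only the 10342 genes averaging at least 50 counts were tested, which leaves fewer genes, and 325 to 379 with 1 library left out. Of 524 tested list genes 269 were called, and 234 to 265 with 1 library left out. With 1 library left out, genes called in LPS against Control numbered 3104 to 3580 and genes called in (GT)6 SWCNT against Control 1980 to 2576. The share higher in LPS against Control was 48.7%, and 35.4% with upper-quartile factors. Libraries with the same replicate number did not deviate together (r of −0.04, 0.0013 and −0.10 between (GT)6 SWCNT and LPS). These correlations cannot tell whether libraries of the same number were handled together. With a replicate block 2789 genes were called, 2742 of them the same genes. No gene of the 12 highest, the 12 lowest or the 4 settings of Control lost its call or changed sign. DESeq2's test called 2740 genes. With 3 libraries a group, and doses not given, the differences hold for these exposures only.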
